A study of Mus musculus with 3 samples.

Results

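Cxcl12 and its receptors Cxcr4 and Ackr3 were followed across the cell classes of 3 single-cell RNA libraries of mouse bone marrow. They are 3 of the 27998 genes listed, taken by symbol, and each symbol is listed once. Untreated female CB6F1 mice gave the WT library. BMT mice were female CB6F1 recipients (CD45.2+), given 2 irradiation doses of 4.0 Gy and, 4 hours later, marrow cells of B6.SJL donors that carry CD45.1. The aGVHD mice (acute graft-versus-host disease) had the same irradiation and marrow and were also infused with splenic cells of female C57BL/6 mice. All 3 libraries were sorted by depleting CD45, lineage and CD71 stained cells and keeping live cells, so the blood cells described here are those that passed this sort. How many mice went into each library, and on which day, is not given in the sources used here.

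Cxcl12 is a chemokine that holds blood stem cells, B cell precursors and neutrophils in the marrow. Its receptor Cxcr4 signals through inhibitory G proteins and draws these cells towards the ligand. Ackr3, an atypical receptor, binds the same ligand, takes it up and has it degraded, with signalling through arrestins rather than G proteins. In marrow, reticular stromal cells that carry the leptin receptor are known as the main source of Cxcl12.

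The genes lie at chr6:117168535-117181367 on the plus strand (Cxcl12, ENSMUSG00000061353), chr1:128588199-128592293 on the minus strand (Cxcr4, ENSMUSG00000045382) and chr1:90203980-90216751 on the plus strand (Ackr3, ENSMUSG00000044337), in GRCm38 coordinates of GENCODE M21. The 250 bases before each RefSeq start (GRCm38.p6) are shown because each gene had its highest level in a different cell class. Capitals mark TATAAA and GGGCGG, searched on both strands.

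Cxcl12, chr6:117168285-117168534, plus strand: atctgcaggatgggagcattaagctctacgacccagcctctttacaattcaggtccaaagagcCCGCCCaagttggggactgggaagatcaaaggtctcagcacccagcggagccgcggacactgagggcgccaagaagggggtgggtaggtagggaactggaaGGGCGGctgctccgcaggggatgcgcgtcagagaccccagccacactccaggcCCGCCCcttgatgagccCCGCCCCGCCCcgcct
Cxcr4, chr1:128592300-128592549, minus strand: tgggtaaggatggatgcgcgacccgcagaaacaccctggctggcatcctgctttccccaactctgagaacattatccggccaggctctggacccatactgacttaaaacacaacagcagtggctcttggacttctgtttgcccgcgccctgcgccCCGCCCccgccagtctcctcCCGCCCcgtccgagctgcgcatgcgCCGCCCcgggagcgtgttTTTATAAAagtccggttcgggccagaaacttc
Ackr3, chr1:90203730-90203979, plus strand: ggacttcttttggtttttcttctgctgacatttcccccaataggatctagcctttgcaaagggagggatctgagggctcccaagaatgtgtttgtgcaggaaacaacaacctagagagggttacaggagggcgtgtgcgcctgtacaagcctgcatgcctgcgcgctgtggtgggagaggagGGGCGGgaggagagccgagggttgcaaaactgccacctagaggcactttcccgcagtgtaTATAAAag

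The Cxcl12 window held 5 GGGCGG matches, the Cxcr4 window 3 and the Ackr3 window 1. TATAAA was found in the Cxcr4 window (2 overlapping matches, 1 on each strand, the nearer ending 24 bases before the start) and in the Ackr3 window (1 match, ending 2 bases before the start), and these letters were not in the Cxcl12 window. Of 32851 windows of the same length, 32.7% held GGGCGG and 12.4% held TATAAA. Neither the core of the interferon-stimulated response element nor ACGTG, the core of the hypoxia response element, was found on either strand of the 3 windows, and 2.98% and 16.6% of all windows held them. GC content was 64.4% for Cxcl12, 61.2% for Cxcr4 and 54.0% for Ackr3, with a median of 52.4% over all windows.

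After calling, the libraries held 6722, 3516 and 5320 cells in WT, BMT and aGVHD, with median depths of 7122, 6706.5 and 6800 UMIs (unique molecular identifiers, counted RNA molecules). Between 5 and 11 cell barcodes were shared by any pair of libraries. Cells were assigned to a class from marker genes that include no member, and each class is a resemblance ("-like"). No class could be assigned to 941, 351 and 827 cells. Levels are UMIs summed over the cells of a class per 1000000 UMIs of that class (CPM), with exact Poisson 95% intervals. With 1 library per group no replicate check was possible, no p-value exists, and every interval covers counting error only. Levels of different genes are not compared with each other. In empty droplets (at most 100 UMIs) Cxcl12 was at 1832, 3236 and 1225 CPM in WT, BMT and aGVHD, Cxcr4 at 25.8, 66.6 and 48.8 CPM, and Ackr3 at 145.8, 92.04 and 46.8 CPM. The part of each class's UMIs that could come from such free RNA was estimated from haemoglobin and neutrophil granule genes. In some classes this estimate was too high, as it exceeded all Cxcl12 UMIs found. It came to 279.1% of them in neutrophil-like cells of aGVHD and 1238% in erythroid-like cells of BMT.

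**Figure D1:**
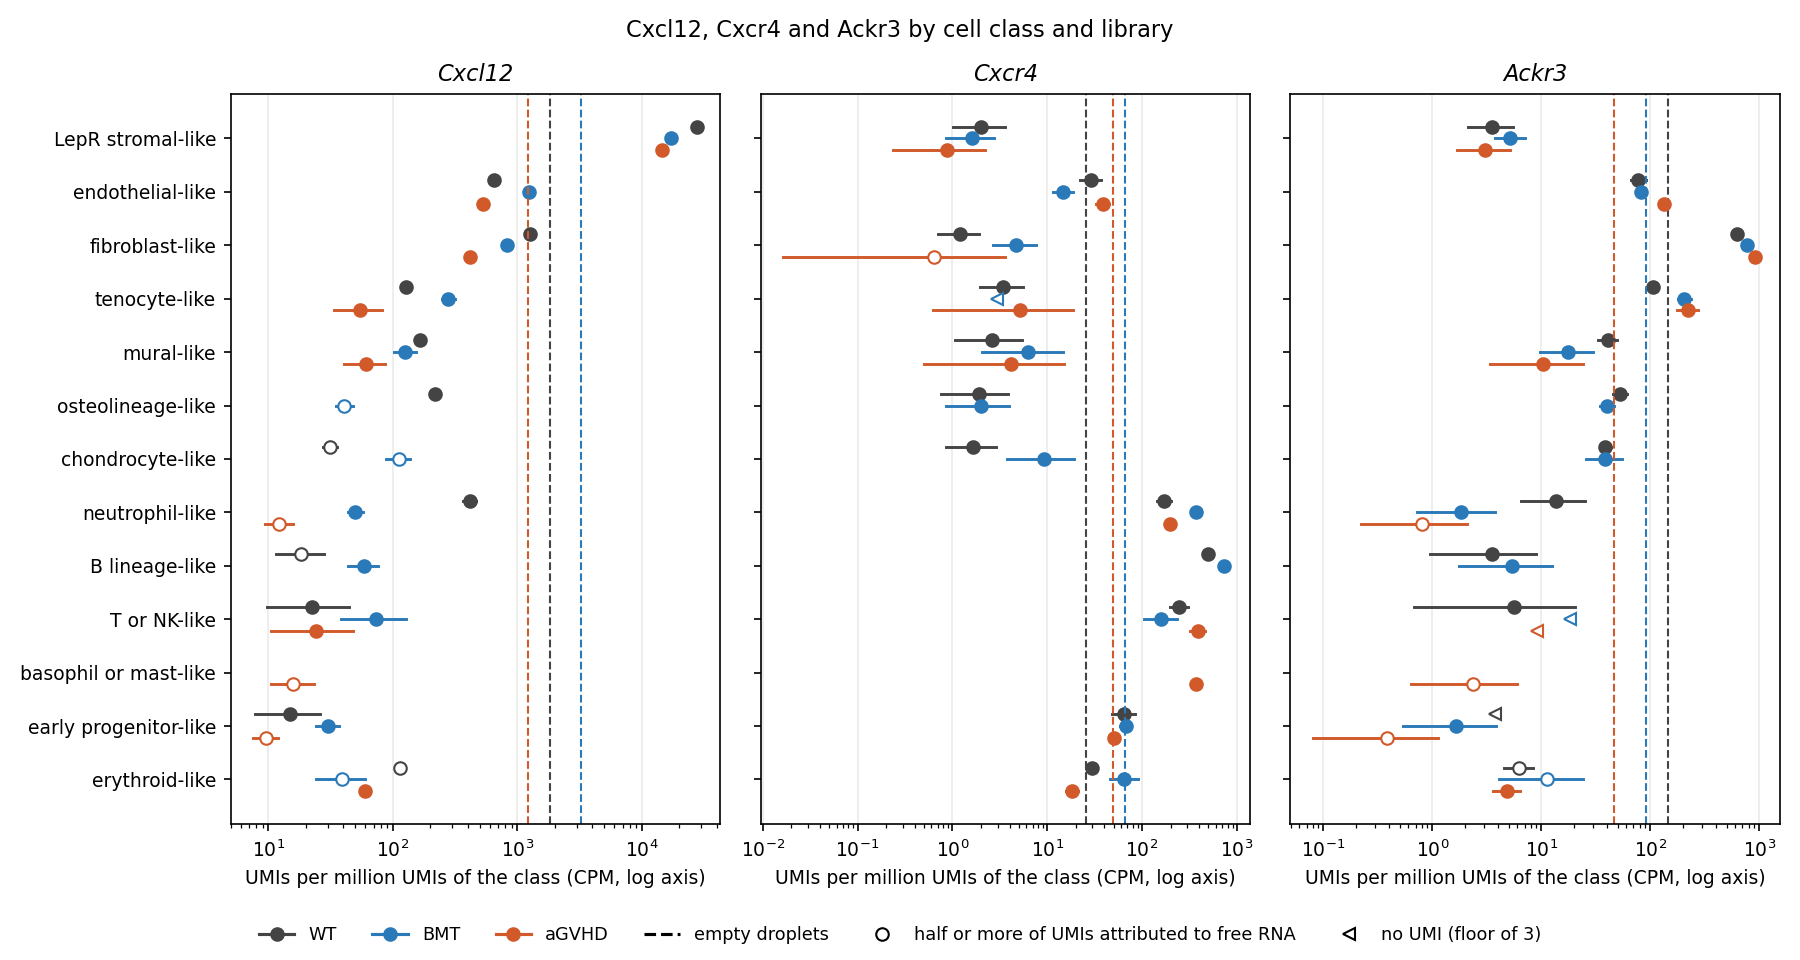
Level of each gene (CPM, log axis) in each cell class drawn, where a library had at least 20 cells of it, with exact Poisson 95% intervals. Filled points are levels with under 50% of the UMIs attributed to free RNA, open points the others, triangles the floor of 3 UMIs where none was found, and dashed lines the empty droplets. Cxcl12 peaks in LepR stromal-like cells, Cxcr4 in blood classes and Ackr3 in fibroblast-like cells, in each of the 3 libraries.

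LepR stromal-like cells held most of the Cxcl12 RNA in every library. They numbered 933, 569 and 370 in WT, BMT and aGVHD and carried 84.7%, 92.5% and 91.5% of all Cxcl12 UMIs of called cells. Every one of the 933 WT cells had a Cxcl12 UMI, as did 567 of 569 BMT and 369 of 370 aGVHD cells. Free RNA accounted for at most 0.182% of these UMIs. Next in WT came fibroblast-like cells at 1267 CPM (1249 to 1285) and endothelial-like cells at 643.5 CPM (610.1 to 678.2). In BMT and aGVHD the order was the other way around, with endothelial-like cells at 1234 and 527.1 CPM and fibroblast-like cells at 826.2 and 417.6 CPM. Each of these endothelial-like and fibroblast-like levels was below the empty droplets of its library. Free RNA was estimated at no more than 6.28% of their UMIs.

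Per UMI, Cxcl12 in LepR stromal-like cells was lower in both transplanted libraries than in WT. It was at 27864 CPM in WT (27724 to 28005), 17136 CPM in BMT (17046 to 17226) and 14505 CPM in aGVHD (14395 to 14616), so no intervals overlapped. BMT was 1.63-fold lower than WT (1.61 to 1.64), and aGVHD was 1.18-fold lower than BMT (1.17 to 1.19) and 1.92-fold lower than WT (1.90 to 1.94). The difference lay across the cells rather than in a few of them. The median cell held 279.3 Cxcl12 UMIs per 10000 in WT, 172.3 in BMT and 145.2 in aGVHD, and 94.6% of BMT cells and 93.8% of aGVHD cells lay under the WT median. The 5th percentile of WT cells, 169.5 per 10000, was close to the BMT median.

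**Figure D2:**
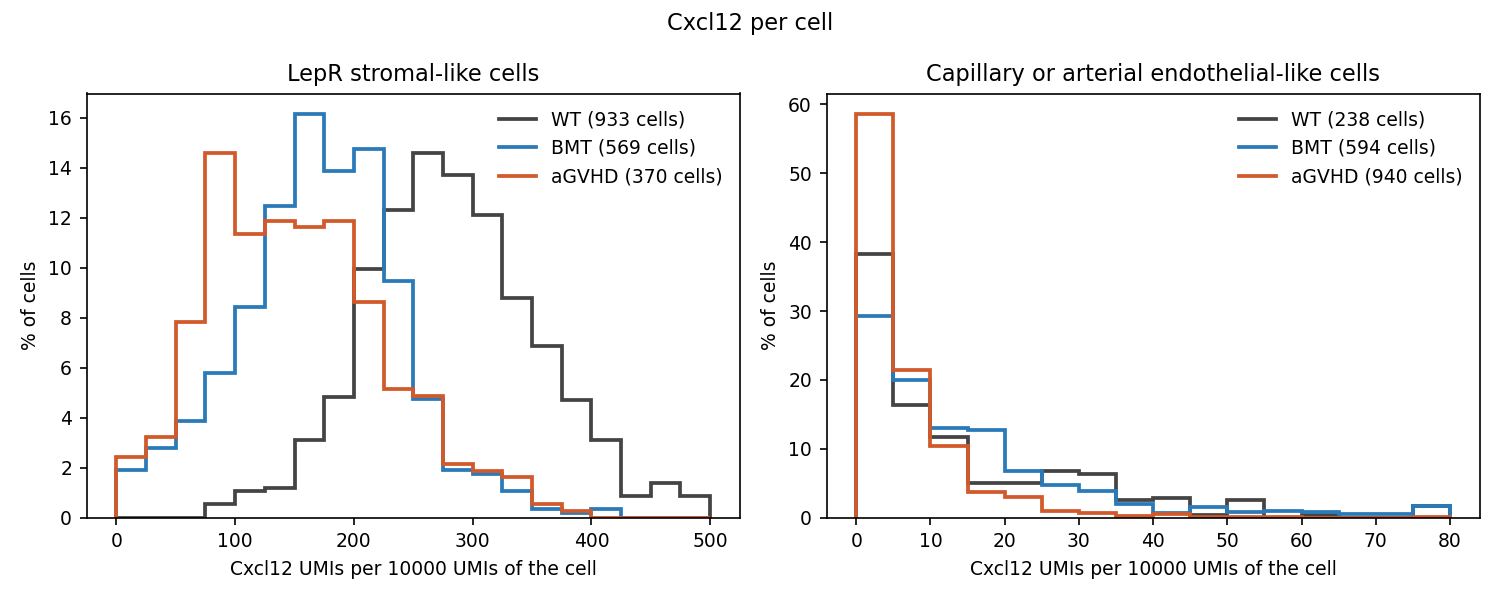
Share of cells (%) by Cxcl12 UMIs per 10000 UMIs of the cell, in LepR stromal-like cells (left) and capillary or arterial endothelial-like cells (right), with 1 line per library and higher values placed in the last bin. On the left the WT cells centre on 279.3, BMT on 172.3 and aGVHD on 145.2. On the right the aGVHD cells gather in the lowest bin.

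The compared cells also differed in other ways. In joint clusters, 1 LepR stromal cluster held 927 WT, 10 BMT and 0 aGVHD cells, and the other 23, 571 and 405. The class markers Adipoq, at 2968, 2100 and 1128 CPM, and Lepr, at 1824, 1188 and 548.9 CPM, had the same order as Cxcl12. So did Ebf3 and Foxc1, but the other markers of the class did not. Gas6 was at 1834, 2083 and 664.5 CPM, Chrdl1 at 816.9, 842.8 and 359.2, and Kng1 at 410.5, 388.7 and 727.3. The part of these markers in the result was not tested.

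The direction against WT depended on scaling. LepR stromal-like cells were deeper in BMT and aGVHD, with medians of 14574 and 12172 UMIs against 5711 in WT. Unscaled, the mean number of Cxcl12 UMIs per cell was 1.502 times the WT value in BMT and 1.11 times in aGVHD, while aGVHD over BMT gave a ratio of 0.738. Whether the depth reflects more RNA per cell or a different capture was not tested. The median log2 ratio over all genes measured in this class was 0.11 for BMT over WT, and with that median set to no change the Cxcl12 ratio was 0.570.

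As a whole class, endothelial-like cells went the other way between WT and BMT, which was not seen in every split. Of all genes measured in the class, 10.7% were called higher and 10.4% lower in BMT than in WT, and 7.26% higher and 11.6% lower in aGVHD than in BMT. The class as a whole was at 1.92 times the WT level in BMT (1.81 to 2.04) and was 2.34-fold lower in aGVHD than in BMT (2.23 to 2.46). The make-up of the class differed as well, so values within its capillary or arterial part (238, 594 and 940 cells, scored from Gpihbp1, Rgcc, Sox17 and others) are given too. In joint clusters, endothelial-like cells lay mostly apart by library, with 1 cluster of 328 WT, 113 BMT and 75 aGVHD cells, another of 99, 523 and 24, and the largest of 12, 60 and 1112. In the capillary or arterial part Cxcl12 was at 1275 CPM in WT (1199 to 1354), 1515 CPM in BMT (1475 to 1556) and 590.9 CPM in aGVHD (564.7 to 618.1). The ratio was 1.19 for BMT over WT (1.11 to 1.27), and aGVHD was 2.56-fold lower than BMT (2.43 to 2.70). As a mean over cells, BMT over WT was 1.07 here. Of these cells, 78.6%, 89.7% and 63.1% had a Cxcl12 UMI. Among the 160, 552 and 729 of them with at least 2000 UMIs, the shares expected after thinning to 2000 were 66.7%, 78.1% and 53.6%. In cells with at least 2 of the arterial genes Sox17, Efnb2, Gja4 and Sema3g, a split chosen after its values could be seen, Cxcl12 was at 1257 CPM in WT, 1574 in BMT and 666.7 in aGVHD. The other capillary or arterial cells were at 1315, 1432 and 527.6 CPM, and their BMT over WT ratio had an interval that holds 1 (0.970 to 1.23). Sinusoidal-like cells, the wide draining vessels of marrow, were low at 87.5, 62.7 and 44.3 CPM on 23, 23 and 6 UMIs. Venular-like cells, 117 of 500 in WT and 14 of 781 in BMT, were at 254.3 CPM (218.1 to 294.7) and 186.3 CPM (116.8 to 282.1).

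Fibroblast-like cells held 10.7% of the Cxcl12 UMIs of called cells in WT, 1.86% in BMT and 0.891% in aGVHD. The level was 1.53-fold lower in BMT than in WT (1.47 to 1.60) and 1.98-fold lower in aGVHD than in BMT (1.82 to 2.16). With classes taken from joint clusters in place of the per-cell gate, BMT over WT gave a ratio of 0.477 in place of 0.652. The second comparison gave 0.761 in place of 0.505. Cells scored from Apod, Myoc, Smoc2, Cxcl14 and Gdf10 (725 of 1596, 85 of 243 and 95 of 252 cells, called Apod or Myoc cells here) had the highest level, at 1981, 1487 and 734.7 CPM. Adventitial cells, scored from Pi16, Sema3c and others and known from the outer wall of vessels, were at 337.2, 326.8 and 235.9 CPM. In the Apod or Myoc cells BMT over WT was 0.751 (0.710 to 0.794) and aGVHD was 2.02-fold lower than BMT (1.804 to 2.28). The first ratio ran from 0.550 to 0.755 over the other settings. It was past the 1.5-fold limit with a stricter gate (0.592), from clusters (0.553) and as a mean over cells (0.550). That mean was 0.557 when taken over cells with at least 2000 UMIs only. In adventitial cells BMT over WT was 0.969 (0.881 to 1.07) and aGVHD over BMT 0.722 (0.610 to 0.851). In the fibroblast-like cells of neither split, BMT over WT was 0.948 (0.880 to 1.02).

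Tenocyte-like cells, named from tendon genes such as Tnmd, were at 127.5 CPM in WT, 278.5 in BMT and 53.9 in aGVHD, the last on 21 UMIs. In this class 135 of the 600 WT UMIs and 129 of the 285 BMT UMIs came from 1 cell each. Mural-like cells, which wrap vessels, were at 164.8, 124.8 and 60.2 CPM. In osteolineage-like cells the WT level was 217.0 CPM, with 179 of 802 UMIs in 1 cell, and in BMT 88.7% of the 163 UMIs could come from free RNA.

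Cxcl12 UMIs of blood classes were also set against those of Adipoq, a hormone gene of LepR stromal cells and one of the markers that define that class. Empty droplets held 9.88, 8.39 and 11.8 Cxcl12 UMIs per Adipoq UMI in WT, BMT and aGVHD, and LepR stromal-like cells held 9.39, 8.16 and 12.9. As these were alike, the measure cannot tell free RNA from RNA of LepR stromal-like cells. Neutrophil-like cells were near these values at 10.1, 10.7 and 15.3, and B lineage-like cells at 10.5 in WT and 9.0 in BMT, on 2 and 6 Adipoq UMIs. Not all blood classes were this close. Erythroid-like cells were at 17.3 in WT and 9.79 in aGVHD, and megakaryocyte-like cells of aGVHD at 42.7, the last on 3 Adipoq UMIs. In these, 1 cell each held 185 of 830, 206 of 597 and 75 of 128 Cxcl12 UMIs. Capillary or arterial endothelial-like cells held 265.5, 222.6 and 317.5 and fibroblast-like cells 335.2, 559.8 and 216.7, far above the free RNA of their libraries. These rest on few Adipoq UMIs, 4, 24 and 6 in the first class and 57, 5 and 3 in the second. In WT neutrophil-like cells, 302 Cxcl12 UMIs lay in 11 of 86 cells, with 152 in 1 cell, and the level was 413.1 CPM. Free RNA was estimated at 1.42% of these UMIs.

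**Figure D3:**
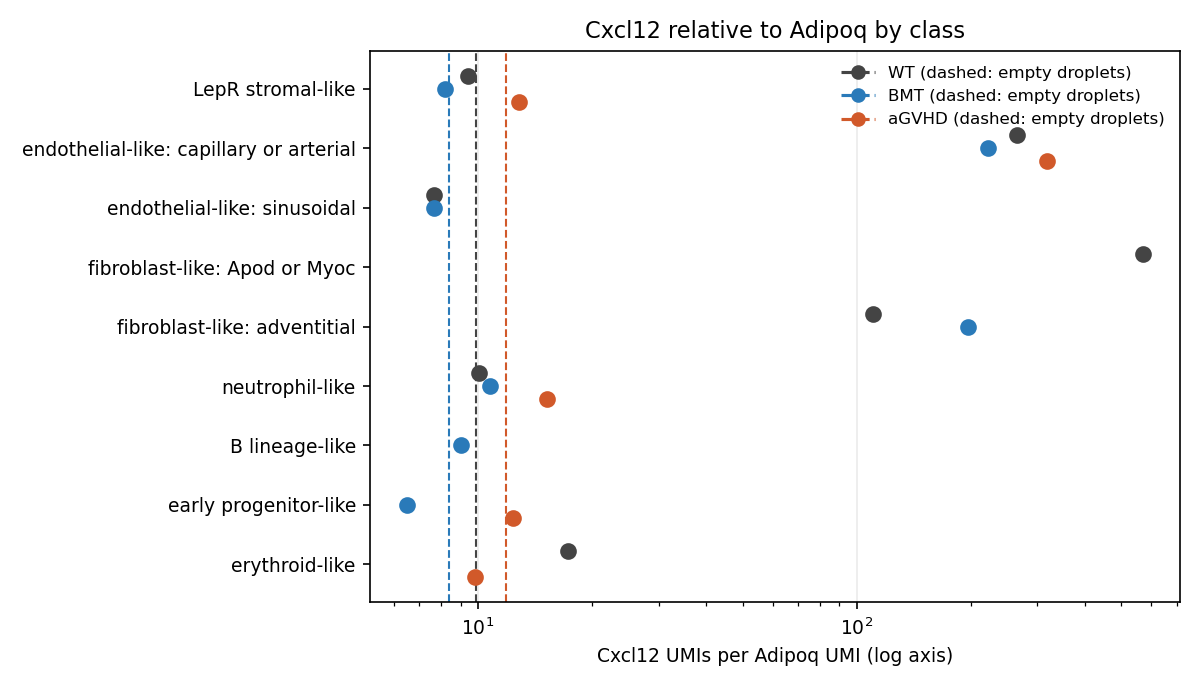
Cxcl12 UMIs per Adipoq UMI (log axis) in 9 selected classes and splits, where a library had at least 20 cells and 3 Adipoq UMIs, 1 colour per library, with the empty droplets of each library as dashed lines. Neutrophil-like, B lineage-like and sinusoidal-like cells lie between 7.67 and 15.3, WT erythroid-like cells stand at 17.3, and the capillary or arterial endothelial-like and fibroblast-like points drawn are at 110.5 or more.

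Other genes of the ligand side were counted in LepR stromal-like cells, where a gene was called higher or lower at 1.5-fold with an interval excluding 1. Of 8 measured genes for other ligands and ligand-cutting enzymes, 1 was higher and 2 lower in BMT than in WT, where 13.2% of all measured genes were higher and 5.66% lower. Cxcl14, a chemokine gene, was at 3207 CPM in WT and 2058 CPM in BMT, 1.56-fold lower (1.53 to 1.59). The others called were the gelatinase genes Mmp2, at 38.2 CPM in WT and 221.5 in BMT, and Mmp9, at 52.2 and 23.2 CPM, each under 2 times the empty droplets. In aGVHD over BMT, 2 were higher and 1 lower, against 6.67% and 15.7% of all genes. Adm, the gene of the vessel-active peptide adrenomedullin, had 46.8 CPM in BMT against 326.2 in aGVHD, 6.96-fold higher (6.22 to 7.81). Mif, a cytokine gene, was called higher and Mmp9 lower, both below the empty droplets. The median log2 ratio of this list was -0.24 for BMT over WT and -0.28 for aGVHD over BMT, beside 0.11 and -0.12 for all genes.

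Among 9 regulators named for Cxcl12 in stroma, 1 was higher and 0 lower in BMT than in WT, and 0 were higher and 2 lower in aGVHD than in BMT. Over all genes of the class these shares were 13.2% and 5.66%, and 6.67% and 15.7%. Adrb3, an adrenergic receptor gene, was at 3.67, 12.8 and 7.61 CPM in WT, BMT and aGVHD, which made BMT 3.49 times WT (2.15 to 5.95) and aGVHD 1.69-fold lower than BMT (1.14 to 2.55). Ebf3, a transcription factor gene of these cells and itself one of the markers that define the class, was 1.79-fold lower in aGVHD than in BMT (1.67 to 1.91). Foxc1, also a marker of the class, was at 392.5, 384.2 and 282.7 CPM and was called in neither comparison.

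Cxcr4 had its highest levels in blood classes, but not every blood class stood above endothelial-like cells. In WT the highest level among classes of at least 20 cells was in B lineage-like cells at 491.3 CPM (451.4 to 533.7), followed by T or NK-like cells at 244.4 (195.7 to 301.4), monocyte or macrophage-like cells at 178.4 and neutrophil-like cells at 171.0 (142.3 to 203.7). The first stood above the others, whose intervals overlapped. In BMT the order was B lineage-like at 736.6, neutrophil-like at 369.3 and T or NK-like at 159.1 CPM. In aGVHD, T or NK-like cells at 385.9 CPM (321.7 to 459.2) and basophil or mast-like cells at 368.6 CPM (340.4 to 398.6) overlapped, and neutrophil-like cells were at 195.5 CPM. Early progenitor-like cells were lower at 64.8, 66.9 and 50.5 CPM. Erythroid-like cells were at 29.3, 65.1 and 18.3 CPM, with 15 of the 35 BMT UMIs in 1 cell. In that class 28.6% of all genes were called higher and 6.17% lower in BMT than in WT, and 3.57% higher and 36.6% lower in aGVHD than in BMT. Megakaryocyte-like cells were at 6.22, 20.1 and 3.34 CPM, on 3, 10 and 7 UMIs. LepR stromal-like cells were between 0.869 and 2.02 CPM, below the empty droplets, and 0.750%, 1.76% and 0.811% of them had a Cxcr4 UMI.

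In neutrophil-like cells, Cxcr4 was higher in BMT than in WT and in aGVHD. There were 86, 721 and 639 such cells with 125, 1426 and 974 Cxcr4 UMIs. BMT over WT gave 2.16 (1.798 to 2.61), aGVHD was 1.89-fold lower than BMT (1.74 to 2.05), and aGVHD over WT gave 1.14 with an interval that holds 1 (0.948 to 1.39). A UMI was found in 61.6%, 78.5% and 71.5% of cells at median depths of 5938, 4255 and 7063 UMIs. Thinned to 2000 UMIs, it was 30.6%, 53.8% and 35.0% of the cells with at least 2000 UMIs. Within this class 24.0% of all measured genes were called higher in BMT than in WT and 31.6% lower in aGVHD than in BMT, so calls of this size were common.

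The maturity of these cells differed between libraries as well. Mature neutrophil-like cells, scored from Cxcr2, Retnlg, Csf3r and others, made up 41 of 86, 584 of 721 and 355 of 639 cells in WT, BMT and aGVHD. Their Cxcr4 level was 308.0 CPM in WT (229.3 to 404.9), 467.4 in BMT (440.6 to 495.3) and 275.9 in aGVHD (253.1 to 300.1). Immature cells, marked by the granule genes Camp, Ngp and Ltf, were at 112.2, 181.7 and 136.7 CPM, below the mature cells of the same library in all 3. Within mature cells BMT over WT was 1.52 (1.15 to 2.05) and aGVHD was 1.69-fold lower than BMT (1.53 to 1.88). With the median ratio of tested genes set to 1, neither call held in mature cells. BMT over WT was then 1.25 (0.946 to 1.69) and aGVHD over BMT 0.729 (0.657 to 0.808). Within immature cells the BMT over WT ratio was 1.62 (1.20 to 2.22) and aGVHD was 1.33-fold lower than BMT (1.11 to 1.59). As a mean over cells, the ratio of BMT over WT was 1.56 in the whole class and 1.15 in mature cells.

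**Figure D4:**
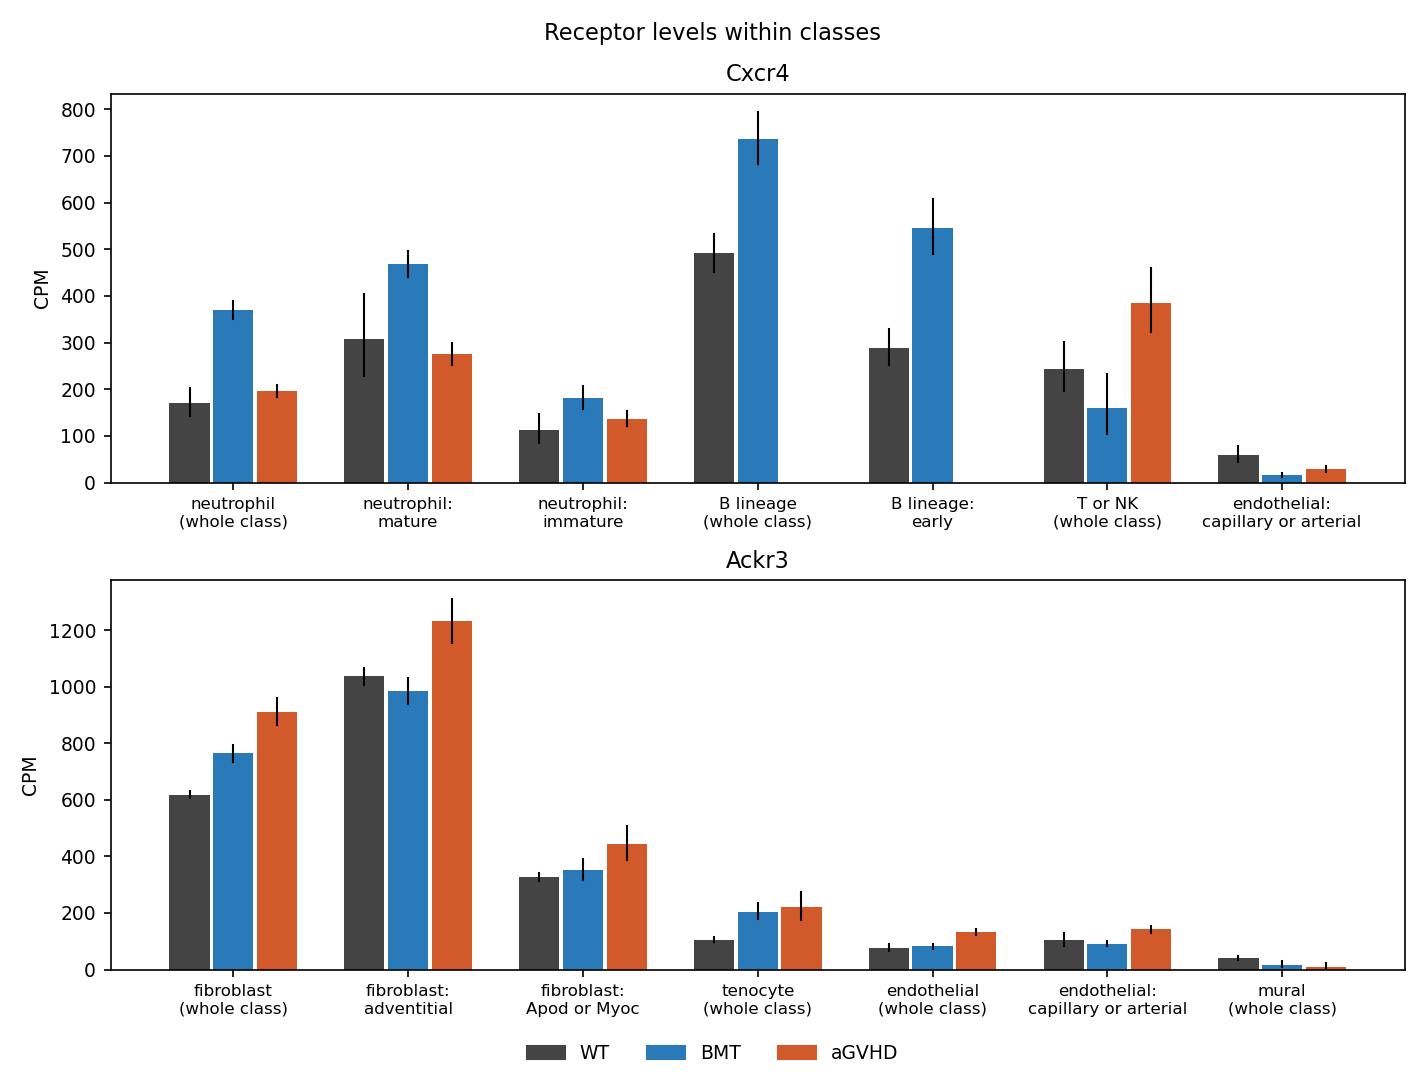
Cxcr4 (top) and Ackr3 (bottom) in CPM for whole classes and their splits, with bars per library from 0 and exact Poisson 95% intervals as lines, and no bar for fewer than 20 cells. Cxcr4 in mature neutrophil-like cells is 308.0, 467.4 and 275.9 CPM, and Ackr3 in adventitial fibroblast-like cells is 1036, 983.2 and 1231 CPM, in WT, BMT and aGVHD.

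B lineage-like cells numbered 183 in WT, 183 in BMT and 3 in aGVHD, so aGVHD gives no comparison. A Cxcr4 UMI was found in 85.2% of WT and 84.7% of BMT cells. The pooled ratio of BMT over WT was 1.499 (1.34 to 1.68), but it was 0.969 as a mean over cells and 0.877 (0.756 to 1.02) with a stricter gate, so no direction is given. Early cells, marked by Vpreb1, Igll1 and Rag1, were at 288.0 CPM in WT and 546.5 in BMT. As a mean over cells they held 5.33 and 6.65 Cxcr4 UMIs per 10000, and UMIs per cell without scaling gave 0.964 for BMT over WT. No direction is given for early cells either. B lineage-like cells that were neither early nor late by their markers had more, at 993.4 CPM in WT (887.4 to 1109) and 1118 in BMT (1003 to 1242), which overlap. In T or NK-like cells, of which there were 49, 23 and 61, aGVHD over BMT was 2.43 (1.58 to 3.86) and aGVHD over WT 1.58 (1.19 to 2.10), where 13.1% of all genes were called higher and 11.8% lower in aGVHD than in BMT. The BMT value there rested on 26 UMIs in 8 cells.

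A small part of endothelial-like cells had Cxcr4. Over the whole class the level was 28.6, 14.7 and 38.8 CPM in WT, BMT and aGVHD, below the empty droplets in the last 2. In the capillary or arterial cells it was 58.8 CPM in WT (43.5 to 77.8), 15.9 in BMT (up to 20.6) and 28.9 in aGVHD (23.3 to 35.3), with 24 of 238, 38 of 594 and 51 of 940 cells positive. The WT level was 2.28 times the empty droplets, but BMT and aGVHD lay below theirs, at 0.239 and 0.591 times. Free RNA was estimated at 2.58% of the UMIs in BMT and 2.03% in aGVHD. BMT was 3.70-fold lower than WT (2.47 to 5.53), and aGVHD over BMT was 1.82 (1.29 to 2.58). The second was 1.35 (0.934 to 1.97) with a stricter gate, which ends the call, and 1.05 in UMIs per cell without scaling. In aGVHD 19 of the 93 UMIs came from 1 cell. In WT the arterial-marked cells were at 72.4 CPM and the other capillary or arterial cells at 27.6 CPM, the last on 7 UMIs. Among all Cxcr4-positive endothelial-like cells, the leukocyte gene Ptprc was detected in 1 of 35, 2 of 44 and 1 of 67, and in 0 of 465, 8 of 737 and 1 of 1119 of the others. Sinusoidal-like cells had 1, 1 and 0 Cxcr4 UMIs in 54, 52 and 26 cells.

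Genes of the receptor side were counted in the same blood classes. In neutrophil-like cells, 6 of 16 measured genes were higher and 1 lower in BMT than in WT, beside 24.0% and 17.5% of all genes, with a median log2 ratio of 0.61 against 0.14. In aGVHD over BMT 2 were higher and 7 lower, beside 7.83% and 31.6%, with medians of -0.51 and -0.30. Rgs2, a brake on G protein signalling, was at 169.6, 911.0 and 340.1 CPM in WT, BMT and aGVHD, with BMT 5.37 times WT (4.49 to 6.48) and 2.68-fold lower in aGVHD than in BMT (2.53 to 2.84). Rgs1, a gene of the same family, was at 28.7, 140.3 and 36.3 CPM. Cxcr2, the receptor for chemokines that draw neutrophils out of marrow and one of the markers used to gate the class, was at 119.0, 254.0 and 239.3 CPM, with BMT 2.13 times WT (1.71 to 2.69). Grk6, a kinase that desensitises receptors, was 2.02-fold lower in BMT than in WT (1.34 to 2.97). Rgs1 and Rgs2 stood highest in BMT, as Cxcr4 did. On the ligand side Mmp9, a gelatinase gene, had the other order at 1005, 650.0 and 1184 CPM. These levels pool mature and immature neutrophil-like cells, whose shares differed between libraries, and values within each were not computed.

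In B lineage-like cells 6 of 12 receptor-side genes were higher and 0 lower in BMT than in WT, beside 23.8% and 12.9% of all genes. Itga4, the integrin chain that binds Vcam1, was 2.11-fold higher (1.66 to 2.70). On the ligand side 2 of 4 measured genes were higher, Dpp4 and Adm (the latter under 2 times the empty droplets), and 2 lower, Mif and Hmgb1. Dpp4, a peptidase gene whose product cuts and inactivates Cxcl12, was 2.41-fold higher (1.85 to 3.15). Mif, a cytokine that also binds Cxcr4, was at 775.5 CPM in WT and 250.6 in BMT, 3.095-fold lower (2.68 to 3.59), and Hmgb1, which pairs with Cxcl12, was 1.76-fold lower (1.66 to 1.86). These ratios pool early cells, 67 of 183 in WT and 102 of 183 in BMT, with the rest of the class, and their values within each were not computed.

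Ackr3 was highest in fibroblast-like cells, which held 77.6%, 66.9% and 53.5% of its UMIs in called cells of WT, BMT and aGVHD. The level was 618.1 CPM in WT (605.7 to 630.8), 764.5 in BMT (735.3 to 794.5) and 910.9 in aGVHD (864.1 to 959.6), between 4.24 and 19.5 times the empty droplets. A UMI was found in 74.1%, 83.5% and 79.8% of cells. Thinned to 2000 UMIs, it was 50.7%, 59.6% and 64.7% of the cells with at least 2000 UMIs. Among named classes of at least 20 cells, tenocyte-like cells came next at 105.8, 204.2 and 220.8 CPM, then endothelial-like cells at 77.6, 81.7 and 133.5 CPM, which overlapped with each other in no library. Both classes in WT, and endothelial-like cells in BMT, lay below the empty droplets. LepR stromal-like cells, where the ligand gene was highest, were at 3.49, 5.18 and 3.04 CPM, under the empty droplets of each library. In neutrophil-like cells 3.49%, 0.971% and 0.469% of cells had an Ackr3 UMI.

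Pooled over fibroblast-like cells, the levels of the 3 libraries did not overlap, but no ratio reached 1.5-fold. BMT over WT was 1.24 (1.18 to 1.29), aGVHD over BMT 1.19 (1.12 to 1.27) and aGVHD over WT 1.47 (1.39 to 1.56). The first of these was not seen in either named split, and was 1.38 (1.25 to 1.52) in the cells of neither. Adventitial cells, with the highest Ackr3 level, made up 452 of 1596, 114 of 243 and 108 of 252 cells. Their level was 1036 CPM in WT (1007 to 1065), 983.2 in BMT (937.9 to 1030) and 1231 in aGVHD (1156 to 1310). BMT over WT in these cells was 0.949 (0.899 to 1.002), and aGVHD over BMT was 1.25 (1.16 to 1.35). The Apod or Myoc cells were at 328.1, 352.0 and 443.6 CPM, with ratios of 1.07 (0.952 to 1.21) and 1.26 (1.06 to 1.498). Per cell and unscaled, the whole-class ratio of aGVHD over BMT was 0.528, at median depths of 5393 UMIs in aGVHD and 12679 in BMT.

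Capillary or arterial endothelial-like cells held Ackr3 at 103.2 CPM in WT (82.6 to 127.5), 91.9 in BMT (82.2 to 102.5) and 141.8 in aGVHD (129.1 to 155.4). The WT level was below the empty droplets, at 0.708 times, with BMT at 0.998 times and aGVHD at 3.03 times. WT and BMT overlapped, and aGVHD over BMT was 1.54 (1.34 to 1.78). Without scaling, the mean number per cell gave 0.891 for that comparison. In the few sinusoidal-like cells aGVHD was at 206.8 CPM on 28 UMIs in 26 cells, against 91.3 in WT, a ratio of 2.27 (1.27 to 4.09), and BMT was at 38.2 CPM (20.9 to 64.1) on 14 UMIs in 52 cells. Tenocyte-like cells, where 10.1% of all genes were called higher and 6.87% lower in BMT than in WT, gave 1.93 for BMT over WT (1.63 to 2.27), but 0.887 (0.773 to 1.02) with classes taken from clusters. For aGVHD over BMT they gave 1.08 (0.831 to 1.397), and 2.16 from clusters. In the clusters named tenocyte, only 56.3%, 31.8% and 30.1% of cells were tenocyte-like by the gate, so the cluster values cover a different set of cells. Mural-like cells were low at 40.7, 17.7 and 10.4 CPM, 2.31-fold lower in BMT than in WT (1.32 to 4.36) on 14 UMIs, where 8.37% of all genes were called higher and 12.8% lower.

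In fibroblast-like cells, 1 of 8 ligand-side genes was higher and 1 lower in BMT than in WT, beside 8.24% and 6.94% of all genes. Dpp4 was at 50.7 CPM in WT and 103.3 in BMT, 2.04-fold higher (1.79 to 2.31), and Mif was lower but below the empty droplets. In aGVHD over BMT 1 was higher and 3 lower, beside 8.38% and 10.8%. Mmp2, a gelatinase gene, was 3.25-fold lower (2.98 to 3.55), Ctsk, a collagen-cutting cathepsin gene, 4.88-fold lower (4.27 to 5.60), Cxcl14 1.98-fold lower (1.78 to 2.19) and Adm 3.74-fold higher (3.13 to 4.48). Of 13 receptor-side genes 2 were higher and 1 lower in BMT than in WT, and of 12 in aGVHD over BMT 3 were higher and 1 lower. Cd74 and Rgs16 were among those higher in both comparisons, with levels below the empty droplets. Tsc22d3, a gene induced by glucocorticoids, had an aGVHD over BMT ratio of 1.70 in these cells (1.57 to 1.85). In LepR stromal-like cells Tsc22d3 was at 918.7 CPM in WT and 406.9 in BMT, 2.26-fold lower (2.16 to 2.36). There, of 14 receptor-side genes 1 was higher and 3 lower in BMT than in WT, and of 13 in aGVHD over BMT 3 were higher and 2 lower, beside the 13.2%, 5.66%, 6.67% and 15.7% of all genes of that class. In the same cells the receptor-side genes Rgs2 and Cd74, the latter a receptor for Mif, were 2.56-fold (2.37 to 2.78) and 2.47-fold (2.36 to 2.58) higher in aGVHD than in BMT.

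Of fibroblast-like cells with an Ackr3 UMI, 73.9%, 71.9% and 55.7% in WT, BMT and aGVHD also had a Cxcl12 UMI, close to the 74.9%, 72.4% and 56.0% of all fibroblast-like cells. In capillary or arterial endothelial-like cells the shares were 87.5%, 91.0% and 67.7%, beside 78.6%, 89.7% and 63.1% of all such cells. Both receptors were found together in 14 of 500, 18 of 781 and 26 of 1186 endothelial-like cells. A share of this kind also depends on depth, and no thinned value was computed for it.

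Genes with the most similar pattern were ranked by Pearson r on log2(CPM + 10) over 32 sums of class and library from 15 classes, among 10973 genes. The points share libraries and cells of related origin, so r is a description. For Cxcl12 the nearest were Ebf3 (r = 0.940), Fbln5 (0.923), Lamb1 (0.919), Vcam1 (0.913) and Hfe (0.906), of which Ebf3 helped to define the LepR class. Fbln5 and Lamb1 encode matrix proteins and Vcam1 an adhesion molecule. For Cxcr4 they were Cytip (0.939), Inpp5d (0.933), Arhgap30 (0.926), Tbc1d10c (0.925) and S1pr4 (0.923). Inpp5d encodes a lipid phosphatase of blood cells and S1pr4 a receptor for sphingosine 1-phosphate. For Ackr3 they were Ntn1 (0.938), Flnc (0.924), Plat (0.915), Tppp3 (0.914) and Ahnak2 (0.909). Ntn1 encodes the guidance factor netrin 1, Flnc an actin cross-linker and Plat the tissue plasminogen activator.

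Over all called cells the comparisons differed from those within a class. Cxcl12 was at 2829, 4160 and 1470 CPM in WT, BMT and aGVHD, Cxcr4 at 26.2, 76.6 and 59.0 CPM and Ackr3 at 189.7, 107.1 and 53.4 CPM. The pooled Cxcl12 level was thus higher in BMT than in WT while the LepR stromal-like level was lower. The pooled Ackr3 level was 3.56-fold lower in aGVHD than in WT (3.41 to 3.71) while the fibroblast-like level was 1.47 times the WT level. Fibroblast-like cells were 1596 of 6722 cells in WT and 252 of 5320 in aGVHD.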

How the data were processed

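The deposited files are raw counts of UMIs per gene and barcode, written by Cell Ranger 3.1.0 per the file headers, on mm10 with Seurat also named per the submitters' processing notes. Barcodes with at least 1000 UMIs, 500 genes and under 10% mitochondrial UMIs were called cells, and 407, 105 and 248 likely doublets were removed by Scrublet score (scanpy 1.11.5, at 0.8% per 1000 cells). Cells were classed by their best mean marker score where at least 3 markers were detected, the score was at least 0.15 and the margin over the next class 0.1, and splits needed 2 markers. These limits were set after seeing the cells. The members, marker lists and pathway lists were chosen with earlier results of these data known.

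UMIs were summed per class and library. Ratios carry exact 95% intervals conditional on the summed counts (scipy 1.17.1), with at least 50 UMIs over both libraries and 20 cells in each. The calculation was tested on simulated independent Poisson counts. These lack the gathering of UMIs in single cells seen in some classes, so how well the intervals fit these data was not tested. Named genes are the members, the 5 genes most alike to each, and the pathway genes furthest from 1 that stood at least 2 times above empty droplets. Foxc1, and the genes printed as under that limit, were chosen after their values were seen. A gene of the receptor-side list is included in its counts and medians but is not reported here. Of the markers 2 were missing from the gene list. The alternatives were another UMI or mitochondrial limit, doublets kept, a stricter gate, Leiden clusters, other scalings, free RNA subtracted and thinning. For ratios, thinning drew no UMIs. It took the mean over cells among those with at least 2000 UMIs, so it is a variant of the mean over cells.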

Additional observations from a re-analysis of the deposited data

Results flagged for a closer look

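Several classes differed in opposite directions under the same comparison, and whether they differ from each other was not tested. Only classes with under 20% of UMIs attributed to free RNA in both libraries are listed. For Cxcl12 in BMT over WT the ratio was 0.615 in LepR stromal-like and 0.652 in fibroblast-like cells, against 1.92 in endothelial-like and 2.19 in tenocyte-like cells. Within capillary or arterial endothelial-like cells it was 1.19, under the 1.5-fold limit. With the main settings no fibroblast split passed that limit either, at 0.751 in Apod or Myoc, 0.969 in adventitial and 0.948 in the remaining cells. The tenocyte-like value was 1.35 from clusters, and 129 of its 285 BMT UMIs came from 1 cell. For Ackr3 in BMT over WT the ratio was 1.93 in tenocyte-like cells (0.887 from clusters) and 0.433 in mural-like cells.

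For Cxcr4 in BMT over WT the ratio was 0.515 in endothelial-like cells, against 2.16 in neutrophil-like and 2.22 in erythroid-like cells, the last on 35 UMIs in 46 BMT cells. In aGVHD over BMT it was 2.63 in endothelial-like and 2.43 in T or NK-like cells, against 0.530 in neutrophil-like and 0.282 in erythroid-like cells. The endothelial-like value for aGVHD included 66 UMIs from 16 cells that fell in none of the endothelial splits.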

How the results depend on the processing

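The 6 main ratios kept their direction under each of the 10 other settings listed with the processing. Cxcl12 in LepR stromal-like cells, BMT over WT, ran from 0.570 to 0.632. It was 0.632 with doublets kept, 0.626 with a stricter gate, 0.623 from clusters, 0.608 as a mean over cells, 0.600 without mitochondrial, ribosomal and haemoglobin genes and 0.570 with the median ratio set to 1. For aGVHD over BMT it was 0.854 at the 5% mitochondrial limit, 0.871, 0.787, 0.888, 0.885 and 0.923 under the stricter gate and the same 4 settings after it, and 0.879 thinned. Cxcr4 in neutrophil-like cells was 1.56 as a mean over cells for BMT over WT and 0.653 with the median ratio set to 1 for aGVHD over BMT. Ackr3 in fibroblast-like cells, BMT over WT, was 1.14 from clusters.

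Added after seeing the data, UMIs per cell without scaling gave 1.502 and 0.738 for Cxcl12, 1.36 and 0.771 for Cxcr4, and 1.83 and 0.528 for Ackr3, in BMT over WT and aGVHD over BMT. The first for Cxcl12 and the last for Ackr3 reversed, as did Ackr3 for aGVHD over BMT in capillary or arterial endothelial-like (0.891) and adventitial (0.591) cells. Cxcr4 in B lineage-like cells reversed with a stricter gate (0.877) and as a mean over cells (0.969), and Ackr3 in tenocyte-like cells from clusters (0.887), both for BMT over WT. The cause was not tested. Cxcl12 in tenocyte-like cells was 1.35 from clusters for BMT over WT. The clusters named tenocyte also held many cells that the gate did not place in this class. For aGVHD over BMT, Cxcl12 in tenocyte-like cells was 0.410 as a mean over cells and 0.127 with a stricter gate. No paired analysis was possible because each group has 1 library. Depth limits ratios on few UMIs, such as Ackr3 in mural-like cells on 14 BMT UMIs.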
